A study of Mus musculus with 7 samples.

Results

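The zinc-dependent histone deacetylases of classes I and II were followed as the 10 genes Hdac1 to Hdac10, taken by symbol from a GRCm38 annotation, and all 10 were found among the 52550 genes of the count table. Total RNA-seq compared retina of 4 WT and 3 SCA7_KI_homo mice, all on the C57BL/6J background and 12.5 weeks old, with no treatment in the labels. In the SCA7 homozygous knock-in mice (SCA7 below) both Atxn7 alleles carry an expanded CAG repeat and the mutant protein is made from the gene's own promoter, so that every cell type that uses Atxn7 carries it. Each library held both retinas of a single mouse, males and females were used, and the sex of each mouse is not in the labels. The question was whether the mRNA of the deacetylases differed between the genotypes in a retina whose mutant protein sits in the acetyltransferase complex SAGA.

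Histone deacetylases remove acetyl groups from lysines and so oppose the acetyltransferases. Class I enzymes (Hdac1, Hdac2, Hdac3 and Hdac8) are mostly nuclear, and all but Hdac8 work as the catalytic core of corepressor complexes such as SIN3, NuRD, CoREST and NCoR. Class IIa enzymes (Hdac4, Hdac5, Hdac7 and Hdac9) have weak catalytic activity of their own, bind MEF2 transcription factors, and leave the nucleus on 14-3-3 proteins once kinases have phosphorylated them. The class IIb enzymes act largely outside chromatin, Hdac6 on tubulin and Hdac10 on polyamines. In retina, class I enzymes are known for their part in rod differentiation and Hdac4 for its link to photoreceptor survival.

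Libraries held between 56497675 and 96635832 counts on genes, and 20128 genes passed the expression filter of edgeR, all 10 deacetylases among them, with 253 (Hdac7) to 19865 (Hdac5) counts per library. Atxn7 itself ran from 33.7 to 43.7 CPM (counts relative to library size after TMM scaling, used throughout for levels of single genes) in WT and from 34.2 to 39.9 CPM in SCA7 (log2 fold change -0.06, adjusted p = 0.64), which does not check the labels, since a knock-in repeat need not alter the level. The tissue label held: in WT the 10 rod markers summed to 31989 to 34080 CPM and no marker of any list was at 0. In SCA7 all 10 rod and all 10 cone markers were lower, with sums of 12097 to 14686 CPM for rods and of 274 to 303 CPM for cones against 1509 to 1809 CPM in WT. Of the markers of reactive glia 9 of 10 were higher (118 to 129 CPM in WT, 528 to 623 CPM in SCA7), as were all 11 of microglia (82.9 to 106 CPM in WT, 178 to 200 CPM in SCA7) and 3 of 10 of endothelium and pericytes, while 3 of 5 pigment epithelium and 2 of 8 bipolar markers were lower. No amacrine (0 of 8), horizontal (0 of 5) or ganglion cell marker (0 of 7) passed the fold change threshold as well, but their sums were also lower in SCA7 without overlap. The amacrine sum was 738 to 865 CPM in WT against 638 to 701, the horizontal sum 218 to 247 against 192 to 207, and the ganglion cell sum 882 to 1080 against 801 to 849. On the adjusted p alone Gad1, Slc6a9, Pax6 and C1ql2 (amacrine), Calb1 (horizontal) and Nefl (ganglion) were lower. Of the 8 Müller glia markers 1, Apoe, was higher, and on the adjusted p alone Aqp4 and Kcnj10 were higher and Glul was lower. In such bulk tissue fewer cells of a type and less RNA per cell cannot be told apart. The part of these shifts in the values of the deacetylases was not tested.

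RefSeq promoters (GRCm38.p6, the 250 bases before a transcript start) matched 7 of the 10 genes, with 11 starts. Printed are those of the class IIa genes whose levels are compared most closely in what follows: Hdac5 (chr11:102230173-102230422, minus strand), both starts of Hdac9 (chr12:34917096-34917345 and chr12:34528890-34529139, minus strand) and Hdac4 (chr1:92180342-92180591, minus strand). Capitals mark matches, on either strand, to the GC box GGGCGG, the core TAATCC bound by the photoreceptor factor CRX, the E-box CACGTG and the MEF2 site. The last was added after the Hdac5 sequence had been read.
Hdac5: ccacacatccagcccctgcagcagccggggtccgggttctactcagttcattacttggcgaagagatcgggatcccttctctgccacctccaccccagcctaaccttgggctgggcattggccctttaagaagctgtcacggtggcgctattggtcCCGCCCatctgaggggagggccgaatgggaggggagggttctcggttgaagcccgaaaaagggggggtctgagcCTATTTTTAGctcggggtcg
Hdac9 start 1: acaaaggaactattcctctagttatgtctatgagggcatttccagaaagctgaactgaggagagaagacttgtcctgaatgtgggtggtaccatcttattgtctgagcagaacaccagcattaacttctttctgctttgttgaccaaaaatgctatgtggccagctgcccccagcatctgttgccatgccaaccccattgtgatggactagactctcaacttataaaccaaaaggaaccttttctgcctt
Hdac9 start 2: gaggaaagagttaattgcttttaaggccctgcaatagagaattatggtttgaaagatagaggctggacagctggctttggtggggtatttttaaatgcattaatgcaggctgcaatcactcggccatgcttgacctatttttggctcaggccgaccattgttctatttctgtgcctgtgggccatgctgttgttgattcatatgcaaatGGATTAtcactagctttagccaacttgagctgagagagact
Hdac4: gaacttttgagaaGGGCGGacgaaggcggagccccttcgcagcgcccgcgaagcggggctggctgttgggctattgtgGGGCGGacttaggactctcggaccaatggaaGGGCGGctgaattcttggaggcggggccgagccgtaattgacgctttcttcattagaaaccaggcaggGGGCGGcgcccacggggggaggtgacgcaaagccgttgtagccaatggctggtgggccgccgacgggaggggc

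The Hdac4 promoter held 4 GC boxes and 23 CG dinucleotides, and that of Hdac5 1 GC box, 12 CG dinucleotides and 1 MEF2 site that ends 10 bases before the start. Neither Hdac9 window held a GC box, and they had 0 and 2 CG dinucleotides. The second of them held 1 CRX core. Over all 32851 promoters of this length 32.7% held a GC box, 6.25% a CRX core, 6.02% the E-box and 2.92% a MEF2 site, with a median of 6 CG dinucleotides. These matches describe letters only.

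None of the 10 deacetylases passed both criteria for a changed gene (edgeR quasi-likelihood test with Benjamini-Hochberg adjusted p under 0.05, and a fold change SCA7/WT under 0.7 or above 1.3), against 15.4% of all genes tested, 7.91% lower and 7.47% higher. DESeq2 and limma-voom also called 0 of 10. On the adjusted p alone, Hdac1 was higher and Hdac5, Hdac9 and Hdac10 were lower in SCA7, that is 4 of 10 where 28.3% of all genes passed, 14.2% in each direction. At an unadjusted p under 0.05 there were 5, with Hdac6 as the fifth, where 39.7% of all genes passed, and none of the 5 lay past a fold change threshold. The median log2 fold change was 0.05 over the 10 genes and -0.02 over all genes tested, whose quartiles were -0.26 and 0.17, with 6 of the 10 above 0 and 4 below. In 4 of the 10 (Hdac1, Hdac5, Hdac6 and Hdac9) the SCA7 mice did not overlap the WT mice, against 37.5% of all genes. The plot of levels per mouse shows all 10 genes.

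**Figure D1:**
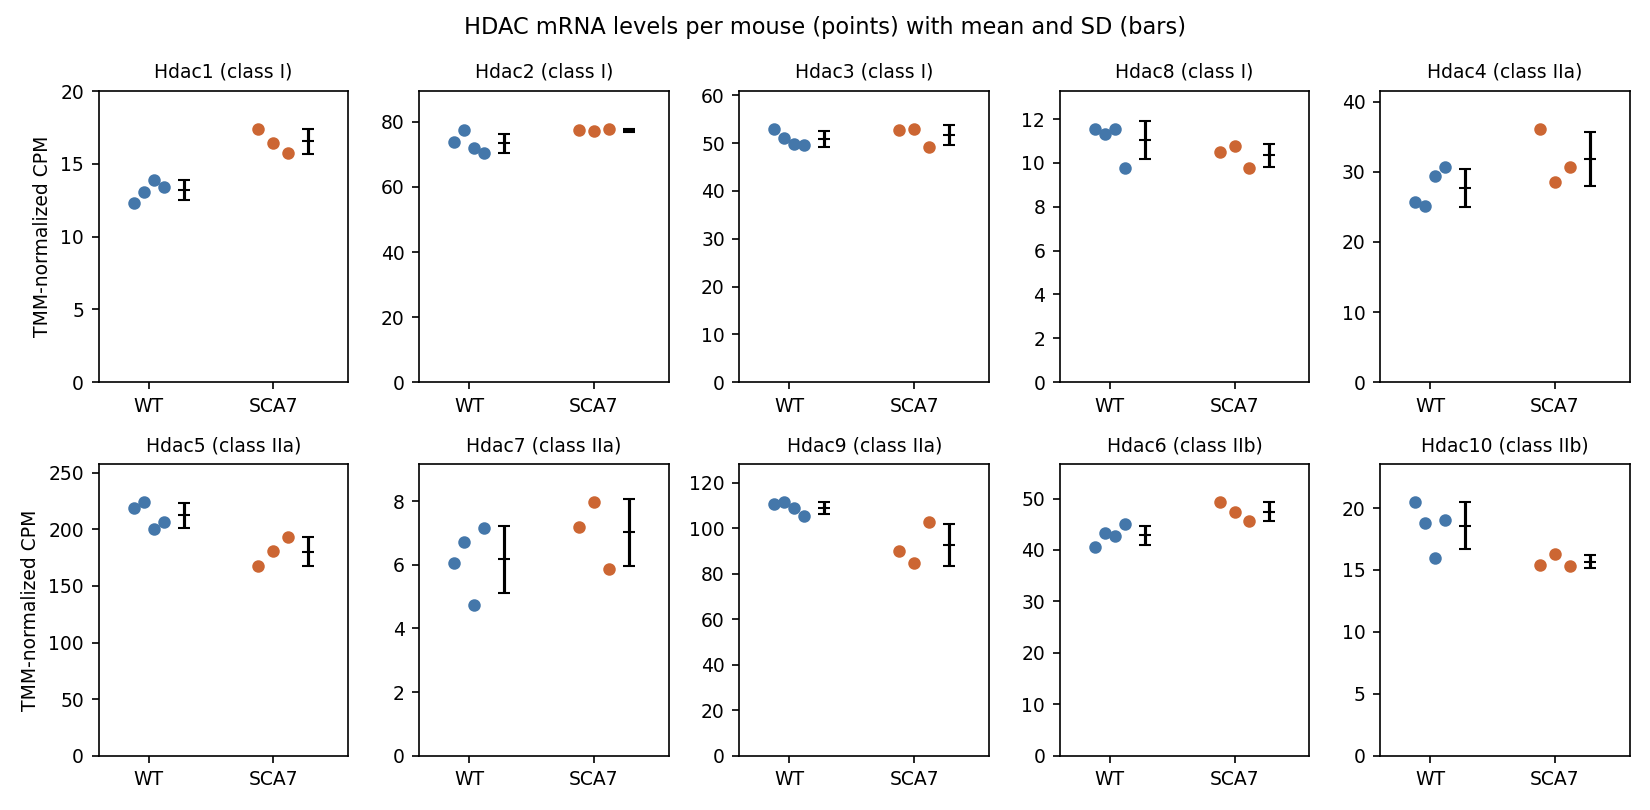
mRNA level of each histone deacetylase in TMM-normalized CPM (y axis from 0, own scale per gene) for 4 WT (blue) and 3 SCA7 mice (orange), with the mean and SD as bars beside the points. The 3 SCA7 points of Hdac1 and Hdac6 all lie above the WT points, and those of Hdac5 and Hdac9 all below.

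In class I, Hdac1 (chr4:129516104-129542713, GRCm38, as for all positions of genes) was the gene with the smallest adjusted p of the family. Its level was 12.3, 13.1, 13.9 and 13.4 CPM in the WT mice and 17.4, 16.5 and 15.8 CPM in the SCA7 mice. Every SCA7 mouse lay above every WT mouse. The level rose from a WT mean of 13.2 ± 0.674 CPM (SD, n = 4) to an SCA7 mean of 16.6 ± 0.844 CPM (SD, n = 3), by 25.4% in the fit, or 0.33 on the log2 scale (SE 0.071, 95% interval 0.17 to 0.48, edgeR adjusted p = 0.0049). This interval reaches past the log2 threshold of 0.38. Hdac1 stayed at an adjusted p under 0.05 in all 15 alternative fits, with log2 fold changes between 0.29 and 0.52. A share of 35.5% of the 50-base words of Hdac1 transcripts also occurs in other genes, mainly the processed pseudogene Gm10093, which held 0 to 2 counts, so that reads of Hdac1 could have been split or left uncounted.

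Hdac2 (chr10:36974544-37001889), the close paralogue of Hdac1 that shares its complexes, stood at 73.7, 77.5, 72.0 and 70.6 CPM in WT and at 77.4, 77.1 and 78.0 CPM in SCA7. The highest WT mouse fell within the SCA7 values, and the log2 fold change of 0.08 (SE 0.055, 95% interval -0.04 to 0.20) had an adjusted p of 0.32. Hdac3, the enzyme of the NCoR complex, stood at 53.0, 51.0, 49.8 and 49.6 CPM in WT and at 52.7, 53.0 and 49.3 CPM in SCA7. The groups lay over each other, with a log2 fold change of 0.02 (SE 0.056, 95% interval -0.10 to 0.14, adjusted p = 0.80). Both intervals lie within the fold change thresholds. Hdac8 (chrX:102284639-102505359), which deacetylates the cohesin subunit SMC3, was at 11.5, 11.3, 11.6 and 9.77 CPM in WT and at 10.5, 10.8 and 9.76 CPM in SCA7. A single WT mouse reached down to the SCA7 values, and the log2 fold change of -0.10 (SE 0.084, 95% interval -0.28 to 0.09, adjusted p = 0.43) turned to 0.10 with scaling by total counts alone. Gm14858, on the opposite strand of Hdac8, held 19 to 39 counts.

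In class IIa, Hdac5 and Hdac9 were lower on the adjusted p, while Hdac4 and Hdac7 did not pass it. Hdac5 (chr11:102194432-102230166) was at 219, 224, 200.2 and 206 CPM in WT and at 167, 181 and 193 CPM in SCA7, with every SCA7 mouse below every WT mouse. Its level fell from a WT mean of 212 ± 10.98 CPM (SD, n = 4) to an SCA7 mean of 180 ± 12.8 CPM (SD, n = 3), with a log2 fold change of -0.23 (SE 0.069, 95% interval -0.39 to -0.08, adjusted p = 0.025). Hdac9 (chr12:34047580-34917095) was at 111, 111, 109 and 106 CPM in WT and at 90.05, 84.7 and 103 CPM in SCA7. All SCA7 mice again lay below WT, the third of them close to it. Hdac9 fell from a WT mean of 109 ± 2.61 CPM (SD, n = 4) to an SCA7 mean of 92.5 ± 9.30 CPM (SD, n = 3), with a log2 fold change of -0.24 (SE 0.070, 95% interval -0.39 to -0.09, adjusted p = 0.024). Both calls were lost when WT replicate 1, WT replicate 2, SCA7 replicate 1 or SCA7 replicate 2 was left out, where the adjusted p rose to at most 0.15 for Hdac5 and 0.14 for Hdac9. In these fits, each with a mouse fewer, the log2 fold changes of both genes lay between -0.23 and -0.18.

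Hdac4 (chr1:91928779-92195699) was at 25.6, 25.1, 29.4 and 30.6 CPM in WT and at 36.2, 28.6 and 30.7 CPM in SCA7. Its groups overlapped, and the log2 fold change of 0.20 (SE 0.094, 95% interval -0.01 to 0.41) had an adjusted p of 0.13. Without SCA7 replicate 1, the highest of the mice, it was 0.10 (adjusted p = 0.51). Hdac7 (chr15:97792664-97844502), best known from endothelium and lymphocytes, was at 6.05, 6.73, 4.74 and 7.16 CPM in WT and at 7.20, 7.97 and 5.87 CPM in SCA7. The groups overlapped here too, with a log2 fold change of 0.18 (SE 0.143, 95% interval -0.13 to 0.49, adjusted p = 0.38). This value was 0.07 without WT replicate 3, 0.08 without SCA7 replicate 2 and 0.30 without SCA7 replicate 3. With a replicate block or with Xist as covariate it was 0.27 (edgeR adjusted p = 0.048 and 0.021). The intervals of Hdac4 and Hdac7 reach past the upper fold change threshold. The 10 endothelial and pericyte markers together summed to 311 to 357 CPM over the WT mice and 409 to 459 CPM over the SCA7 mice, with Cdh5, Kdr and Tie1 (3 of 10) called higher. Kdr alone went from a mean of 106 to 171 CPM. On the adjusted p alone Rgs5 (0.28, adjusted p = 0.0061), Pdgfrb (0.34, adjusted p = 0.028) and Tek (0.25, adjusted p = 0.034) were higher. Cldn5 (-0.48, adjusted p = 0.011) ran the other way, and Pecam1 (-0.01, adjusted p = 0.92), Flt1 and Cspg4 did not pass. The part of these cells in the level of Hdac7 was not tested. Hdac7 overlaps Slc48a1, a haem transporter gene on the opposite strand with 4375 to 8899 counts (log2 fold change 0.07, adjusted p = 0.37), and without the strand option of the counting their shared bases cannot be assigned here. Hdac4 shares 21.6% of its 50-base words, mainly with Gm26720 on the opposite strand (2 to 10 counts).

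In class IIb, Hdac10 (chr15:89123307-89128700) was at 20.5, 18.8, 15.9 and 19.0 CPM in WT and at 15.4, 16.3 and 15.3 CPM in SCA7. WT replicate 3 fell among the SCA7 mice, and the other 3 WT mice lay above them. The level fell from a WT mean of 18.6 ± 1.90 CPM (SD, n = 4) to an SCA7 mean of 15.6 ± 0.529 CPM (SD, n = 3), with a log2 fold change of -0.25 (SE 0.084, 95% interval -0.43 to -0.06, adjusted p = 0.045). Of the 15 alternative fits 5 kept this adjusted p under 0.05, and among those that leave out a library only the fit without WT replicate 3 did (0.0020, against up to 0.15 in the others). Hdac6 (chrX:7930120-7947889), the tubulin deacetylase, was at 40.6, 43.3, 42.7 and 45.0 CPM in WT and at 49.3, 47.4 and 45.6 CPM in SCA7. The SCA7 mice lay above WT, and the log2 fold change of 0.14 (SE 0.059, 95% interval 0.02 to 0.27) had an adjusted p of 0.088.

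**Figure D2:**
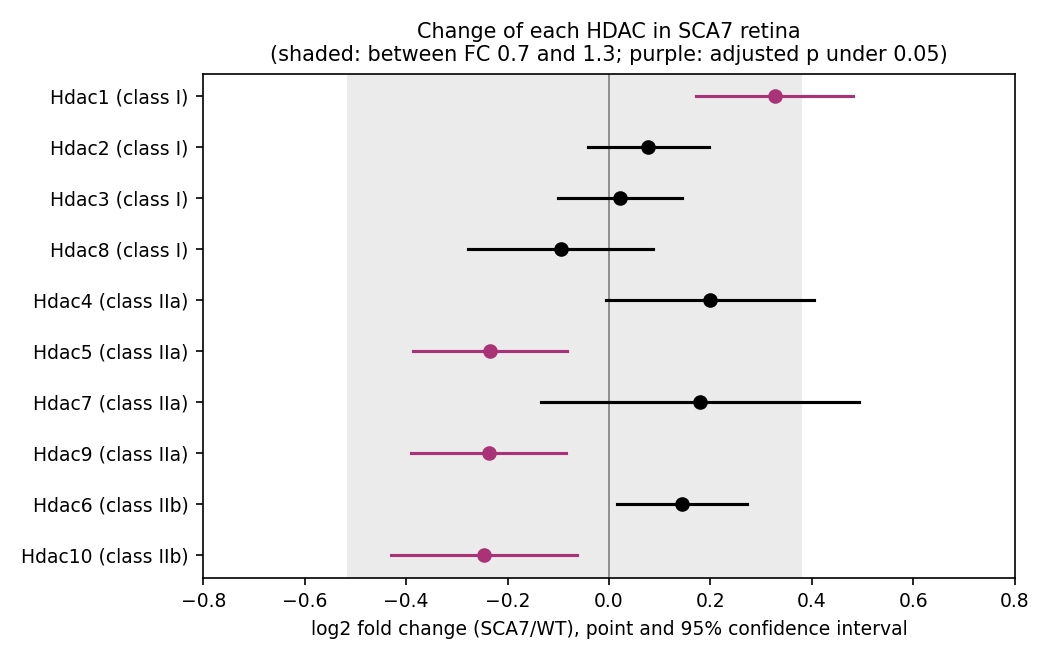
log2 fold change (SCA7/WT, x axis) of each deacetylase as a point with its 95% confidence interval, purple where the edgeR adjusted p is under 0.05, with the range between fold changes of 0.7 and 1.3 shaded. All 10 points lie in the shaded range, and the intervals of Hdac1, Hdac4 and Hdac7 reach beyond its upper end.

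The scaling moved all of these values against 0. Counts scaled by library totals alone moved the median log2 fold change of all genes by 0.19, from -0.02 to 0.17. Relative to 0 the log2 fold changes of Hdac5, Hdac9 and Hdac10 were then -0.05, -0.05 and -0.06, with adjusted p of 0.66, 0.62 and 0.66. Hdac1 at 0.52 and Hdac4 at 0.39 passed both criteria, and Hdac2 (0.27, adjusted p = 0.0047), Hdac3 (0.21, adjusted p = 0.021) and Hdac6 (0.33, adjusted p = 0.0022) passed the adjusted p alone. On the adjusted p, 3 lower and 1 higher thus became 0 lower and 5 higher, while over all genes 7.43% were then lower and 36.2% higher. The sum of the 10 genes changed its order between the genotypes in the same way. With TMM scaling it was 565 ± 15.1 CPM over the WT mice (SD, n = 4; 549 to 582) against 531 ± 13.2 CPM over the SCA7 mice (SD, n = 3; 523 to 546). With totals alone it was 535 ± 31.1 CPM over the WT mice (SD, n = 4) against 573 ± 8.22 CPM over the SCA7 mice (SD, n = 3), again without overlap (489 to 558 and 565 to 582 CPM).

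Ratios of 2 deacetylases within a mouse do not depend on library scaling, and 13 pairs within a class were compared. All 35 ways to split the 7 mice were used in an exact permutation test, two-sided. None of the 13 passed an adjusted p of 0.05, 2 had an unadjusted p under 0.05, and the smallest p the design can give is 0.0286. After adjustment a pair can pass only if most of the 13 reach this smallest p together. The lack of a pass was thus nearly fixed by the design and says little about the ratios. In 6 of the 13 pairs the SCA7 mice did not overlap the WT mice, against 36.9% of all pairs of genes tested. The ratio of Hdac1 to Hdac2 was higher in SCA7 by 0.25 on the log2 scale (exact permutation p = 0.0286, adjusted 0.124), and that of Hdac1 to Hdac3 by 0.30 (exact permutation p = 0.0286, adjusted 0.124). Hdac1 also gained on Hdac8, by 0.42 (exact permutation p = 0.0571, adjusted 0.124), where the adjustment left no single pair able to pass.

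Within class IIa, the ratio of Hdac4 to Hdac5 ran from -3.16 to -2.75 (log2) over the WT mice and from -2.66 to -2.21 over the SCA7 mice, a difference of 0.43 (exact permutation p = 0.0571, adjusted 0.124) that was 0.29 without SCA7 replicate 1. For Hdac4 to Hdac9 the difference was 0.44 with the same p values, and for Hdac6 to Hdac10 in class IIb it was 0.39, also with the same p values. Hdac5 and Hdac9 kept nearly the same ratio, from 0.88 to 1.01 over the WT mice and from 0.89 to 1.09 over the SCA7 mice (difference 0.01, exact permutation p = 0.914, adjusted 0.971), whereas the small difference of Hdac4 to Hdac7 (0.01) ran from -0.09 without SCA7 replicate 3 to 0.18 without SCA7 replicate 2. The pairs share genes, so the 13 values are not independent of each other.

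**Figure D3:**
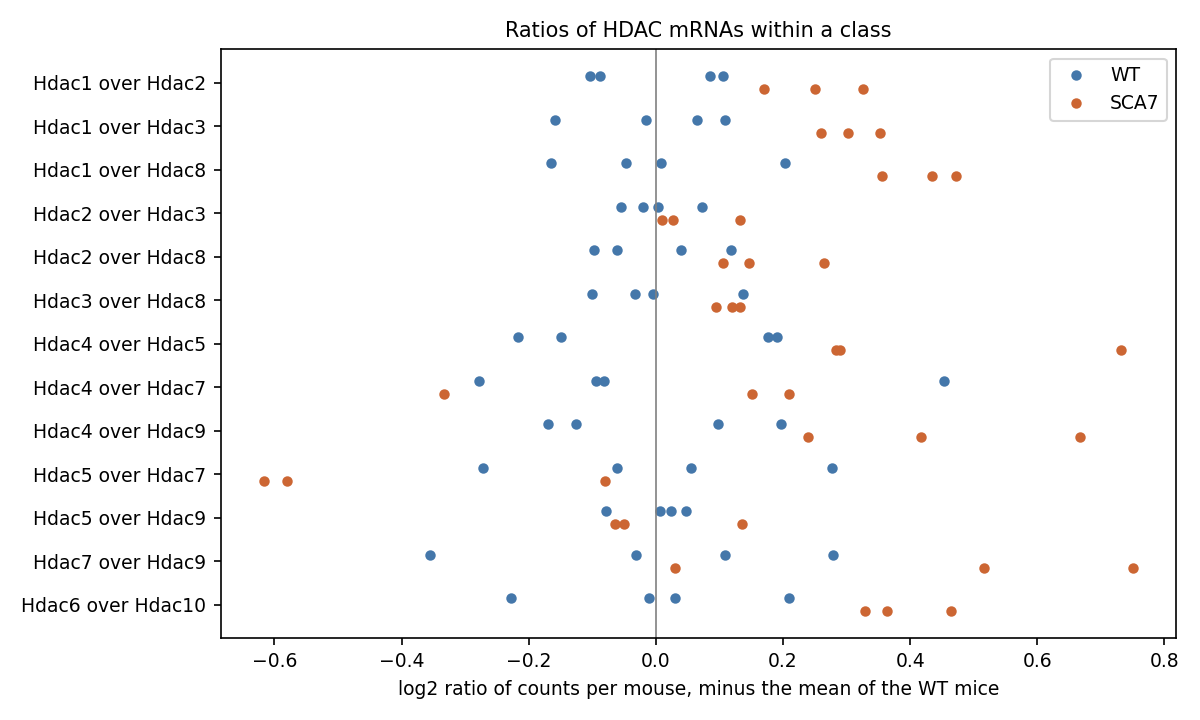
log2 ratio of counts of 2 deacetylases of a class in each mouse, minus the mean of the 4 WT mice (x axis), for 4 WT (blue) and 3 SCA7 mice (orange) and 13 pairs (y axis). The SCA7 mice lie to the right of all WT mice for Hdac1 over Hdac2, Hdac3 and Hdac8, for Hdac4 over Hdac5 and Hdac9 and for Hdac6 over Hdac10.

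Levels of different genes were compared per length, as RPK (counts scaled by DESeq2 size factors per kb of the median transcript length). Hdac5 stood first in WT retina with 19872 RPK ± 1075 (SD, n = 4), above 97.8% of the 15422 protein-coding genes tested. Hdac2 followed with 3484 RPK ± 150, Hdac6 with 3243 RPK ± 142, Hdac3 with 2463 RPK ± 78.1, Hdac9 with 2399 RPK ± 61.0 and Hdac4 with 2138 RPK ± 208 (SD, n = 4). Hdac1 had 1134 RPK ± 57.2, Hdac10 535 RPK ± 55.2, Hdac8 394 RPK ± 30.6 and Hdac7 109 RPK ± 18.8 (SD, n = 4), the last above 22.4% of protein-coding genes. Neighbours in this order were apart in all WT mice except for Hdac2 and Hdac6, Hdac3 and Hdac9, and Hdac9 and Hdac4, whose ranges overlapped.

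The order depended on the length used, because short annotated transcripts pull the median length down (0.7375 kb for Hdac5 and 0.8935 kb for Hdac4, against 8.78 and 15.813 kb for the union of their exons). With the union of exons Hdac5 was still first at 1669 RPK ± 90.3 and Hdac7 last at 63.1 RPK ± 10.9 (SD, n = 4). Hdac2 (1133 RPK) and Hdac3 (866 RPK) came next, then Hdac9 (513 RPK) and Hdac6 (509 RPK), which overlapped. Hdac10 (379 RPK), Hdac1 (264 RPK) and Hdac8 (158 RPK) followed, and Hdac4 moved from 6th to 9th place at 121 RPK. With this length Hdac5 stood above 89.1% of protein-coding genes in place of 97.8%, and Hdac4 above 32.7% in place of 69.7%.

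**Figure D4:**
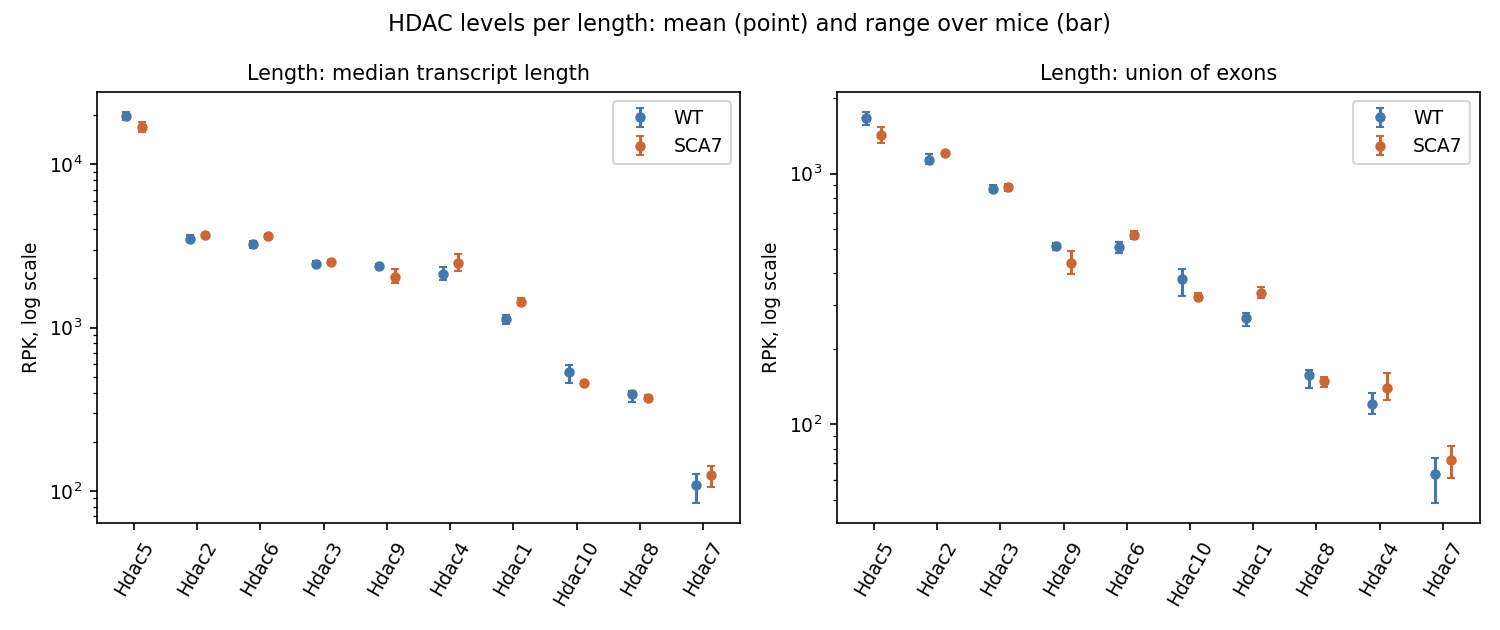
Level per length (RPK, log axis) of each deacetylase, ordered by the WT mean, as mean (point) and range over mice (bar) in 4 WT (blue) and 3 SCA7 mice (orange), with the median transcript length on the left and the union of exons on the right. Hdac5 is first and Hdac7 last with both lengths, and Hdac4 changes place.

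As a share of the summed RPK of the family, class IIa took 68.5% ± 0.563 (SD, n = 4) in WT and 64.1% ± 1.80 (SD, n = 3) in SCA7, with no overlap between the mice. Class I took 20.9% ± 0.405 in WT and 23.8% ± 1.08 in SCA7, and class IIb 10.6% ± 0.473 and 12.1% ± 0.725. With the union of exons the shares were 41.7% and 37.5% for class IIa, 42.7% and 46.4% for class I, and 15.7% and 16.0% for class IIb. Hdac5 makes up most of the class IIa sum by median length (19872 RPK in WT, 17041 RPK in SCA7), and Hdac9 had 2399 and 2053 RPK. Hdac4 (2138 and 2481 RPK) and Hdac7 (109 and 125 RPK) had higher means in SCA7. These shares were not tested, since the members' levels are already tested one by one.

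The genes whose levels followed Hdac1 most closely over the 7 libraries, among 13265 protein-coding genes with at least 1 CPM, were Cited1 (Pearson r of log2 CPM 0.996), Ccdc43 (0.994) and Vps37d (0.991). These 3 are the top values of a search over many genes and few libraries, both genotypes pooled, and are given as a description. Cited1, a transcriptional coregulator, was higher in SCA7 by 0.69 on the log2 scale (edgeR adjusted p = 0.0027), whereas Ccdc43 (0.17, adjusted p = 0.051) and Vps37d (0.16, adjusted p = 0.12) did not pass.

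Around the deacetylases, 99 genes of their complexes, regulators and counterparts were listed from textbook knowledge. Of these 98 were tested, all but Mef2b, which had a mean of 0.0466 CPM in WT and 0.0151 CPM in SCA7. Of the 98, 7 were lower (7.14%, against 7.91% of all genes) and 5 higher (5.10%, against 7.47%), with a median log2 fold change of 0.05. In all 12 called genes the SCA7 mice did not overlap the WT mice, against 37.5% of all genes. The calls rest on the same mice, so this is a description and adds no support. All but 4 of the 12 kept their call in all 15 alternative fits. The exceptions were Phf21a, called in 11, Mier2, in 13, and Elmsan1 and Trerf1, each in 14.

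Among the complexes of class I, most subunits did not pass, which also held for all genes tested, of which 15.4% were called. In SIN3, 1 of 13 genes was called, Sap30, a subunit that bridges SIN3 and Hdac1 and fell from a WT mean of 16.0 ± 1.64 CPM (SD, n = 4) to an SCA7 mean of 9.69 ± 0.536 CPM (SD, n = 3; log2 fold change -0.72, adjusted p = 0.00011), while the scaffold genes Sin3a (0.06, adjusted p = 0.62) and Sin3b (0.15, adjusted p = 0.063) did not pass. On the adjusted p alone 2 of the 13 SIN3 genes were lower and 0 higher, where 14.2% of all genes passed in each direction. In NuRD, 1 of 13 was called, Mta2, a subunit that binds Hdac1 and Hdac2. Mta2 was at 166, 168, 163 and 164 CPM in WT and at 95.7, 100.1 and 107 CPM in SCA7 (log2 fold change -0.71, adjusted p = 4.6e-06). The NuRD ATPases Chd4 (0.35, adjusted p = 0.0072) and Chd3 (0.31, adjusted p = 0.014) were higher on the adjusted p alone. Mta2 and these ATPases thus ran opposite ways, and the list's median was 0.10.

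In CoREST, 1 of 10 was called, Phf21a, which reads unmethylated histone H3 lysine 4 and fell from a WT mean of 151 ± 31.0 CPM (SD, n = 4) to an SCA7 mean of 99.1 ± 9.07 CPM (SD, n = 3; log2 fold change -0.60, adjusted p = 0.015). It lost the call with totals alone, without the filter, without WT replicate 3 and without SCA7 replicate 1. On the adjusted p alone 2 of the 10 CoREST genes were lower and 0 higher, where 14.2% of all genes passed in each direction. Of the 6 genes of the MIDAC complex and the MIER family, 1 was lower and 2 higher. Mier2, a recruiter of Hdac1 and Hdac2, fell from a WT mean of 62.1 ± 2.67 CPM (SD, n = 4) to an SCA7 mean of 42.6 ± 2.17 CPM (SD, n = 3; log2 fold change -0.54, adjusted p = 4.6e-05). The MIDAC genes Elmsan1 (12.8 to 16.9 CPM, log2 fold change 0.41, adjusted p = 0.0069) and Trerf1 (4.68 to 6.45 CPM, 0.46, adjusted p = 0.012) rose, and the third MIDAC gene, Dnttip1, had 0.06 (adjusted p = 0.61). In NCoR, the home of Hdac3, 1 of 5 was called: Tbl1xr1, which exchanges corepressors for coactivators, was at 42.4, 44.2, 46.1 and 47.8 CPM in WT and at 79.7, 68.0 and 70.2 CPM in SCA7 (log2 fold change 0.69, adjusted p = 1.9e-05). Its scaffold gene Ncor1 (-0.04, adjusted p = 0.79) did not pass.

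Among the partners of class IIa, the MEF2 factor gene Mef2c showed the largest change of the listed partner genes. It was at 187, 167, 151 and 190.1 CPM in WT and at 58.0, 65.4 and 66.9 CPM in SCA7 (log2 fold change -1.45, SE 0.089, adjusted p = 4.3e-07). No SCA7 mouse came near the WT range. Mef2a (0.16, adjusted p = 0.052) and Mef2d (-0.15, adjusted p = 0.26) did not pass, so that 1 of the 3 tested MEF2 genes was called. None of the 7 genes of 14-3-3 proteins was called by edgeR, DESeq2 or limma-voom, and 1 of them had an unadjusted p under 0.05, against 39.7% of all genes.

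Of 15 kinases that act on class IIa enzymes, 1 was lower and 1 higher. Sik2, a salt-inducible kinase, was at 54.8, 51.0, 49.5 and 55.0 CPM in WT and at 30.7, 29.8 and 32.3 CPM in SCA7 (log2 fold change -0.76, adjusted p = 3.9e-06). Camk2b, a calmodulin-dependent kinase, was at 108, 112, 114 and 122 CPM in WT and at 165, 165 and 161 CPM in SCA7 (0.52, adjusted p = 5.4e-05). Among their relatives Sik1 had a value of -0.54 that did not pass (adjusted p = 0.11). Sik3 (0.20, adjusted p = 0.040) and Camk2g (0.30, adjusted p = 0.0013) were higher, and Prkd1 (-0.32, adjusted p = 0.0033) was lower, on the adjusted p alone.

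None of the 8 partners of Hdac6 and genes of tubulin acetylation passed both criteria in edgeR, DESeq2 or limma-voom, and 5 had an unadjusted p under 0.05, which 39.7% of all genes had. On the adjusted p alone Cttn, an actin-binding substrate of Hdac6, was higher (58.7 to 73.0 CPM, 0.31, adjusted p = 0.00093), and the chaperone gene Hsp90aa1 was lower (1053 to 821 CPM, -0.36, adjusted p = 0.0074). Of the 8 other deacetylases 1 was called, the mitochondrial sirtuin gene Sirt4, which fell from a WT mean of 24.5 ± 2.35 CPM (SD, n = 4) to an SCA7 mean of 13.8 ± 1.40 CPM (SD, n = 3; log2 fold change -0.83, adjusted p = 4.7e-05). Hdac11, the only class IV enzyme, stood at 139 CPM ± 15.6 (SD, n = 4) and 130 CPM ± 3.09 (SD, n = 3; -0.10, adjusted p = 0.39).

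Of the 10 acetyltransferases, which oppose the deacetylases, 1 was called. Kat2b, a catalytic subunit of SAGA, was at 147, 149, 155 and 155 CPM in WT and at 233, 234 and 233 CPM in SCA7 (log2 fold change 0.62, SE 0.056, adjusted p = 7.5e-06), with the SCA7 mice nearly equal. Its paralogue Kat2a was higher on the adjusted p alone (21.96 to 25.4 CPM, 0.21, adjusted p = 0.036), and Ep300 (-0.28, adjusted p = 0.0027) and Kat6b (-0.32, adjusted p = 0.011) were lower on it. The plot of classes and partner lists sets these genes beside the 10 deacetylases.

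**Figure D5:**
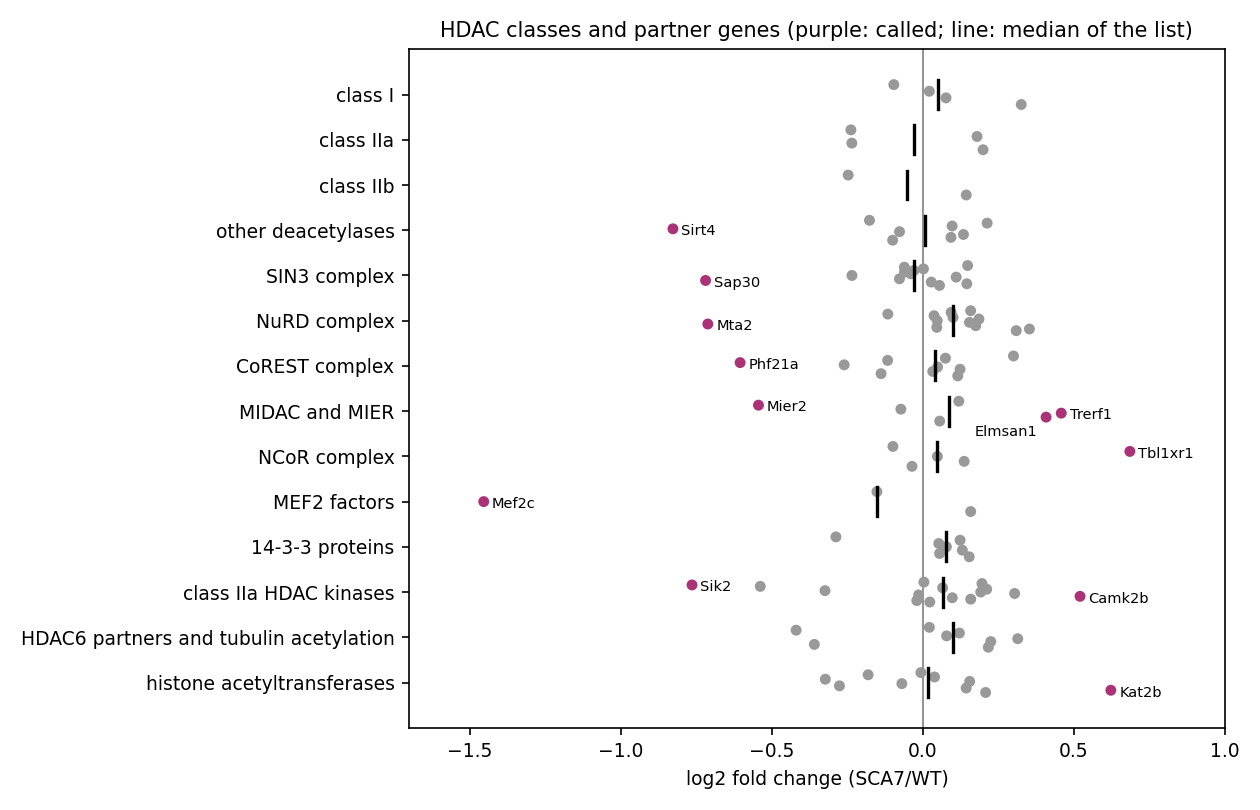
log2 fold change (SCA7/WT, x axis) of every tested gene of the 3 deacetylase classes and the 11 partner lists (y axis), with the median of each list as a vertical line and the 12 called genes named in purple. The deacetylases lie between -0.25 and 0.33, and Mef2c lies farthest out at -1.45.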

How the data were processed

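Total RNA was depleted of ribosomal RNA, made into stranded libraries and sequenced as single reads of 50 bases. Per the labels and the study's methods, the authors mapped reads to mm10 with TopHat2 2.0.14 and Bowtie2 2.1.0 and deposited raw counts per Ensembl gene from HTSeq 0.6.1, without normalization. The strand option is not given in the sources used here. Symbols and lengths came from GENCODE M21, which is a later release than the Ensembl annotation of the counting and covered 52403 of 52550 genes, so lengths behind RPK may differ from those counted.

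The 10 genes, the lists and the tests were chosen with earlier results of these data known. Counts were filtered with filterByExpr, scaled by TMM (factors 0.890 to 0.974 in WT, 1.06 to 1.09 in SCA7) and tested with glmQLFit (robust) and glmQLFTest of edgeR 4.0.16 in R 4.3.3, by genotype, with adjustment over 20128 genes. Ratios used counts with 0.5 added. Intervals are from the fit. Named are all members, called partners (at most 3 per list), catalytic or scaffold genes, and the 3 genes most like the member with the smallest adjusted p. Cttn, Hsp90aa1, Mef2a, Mef2d and the single markers were named after their values were seen. Sik1, Sik3, Camk2g, Prkd1, Kat2a, Ep300 and Kat6b were not called and are also outside this rule. Not every partner that passed the adjusted p alone is named. The result of 1 partner gene on its own is not reported here. The alternatives were DESeq2 1.42.0 (Wald test, or its size factors), limma-voom (limma 3.58.1), totals only, 2 other filters, the replicate block, Xist as covariate, no fold change threshold and each library left out. The edgeR and permutation steps were tested on simulated data. The SDs give the spread between mice, since counting error is only part of it. SEs and intervals also use variance shared across genes in the fit (11.97 degrees of freedom for Hdac1).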

Additional observations from a re-analysis of the deposited data

Results flagged for a closer look

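Of the 10 deacetylases, tested for a WT mouse apart from the rest of its group, 1 was marked. Hdac8 in WT replicate 4 read 9.77 CPM, while WT replicates 1 to 3 read 11.3 to 11.6 CPM. The gap took 0.863 of the whole WT range, above Dixon's 95% critical value for 4 samples. Chance alone marks about 1 in 20 such groups. The 3 SCA7 mice lay between 9.76 and 10.8 CPM, and without this mouse the log2 fold change of Hdac8 was -0.15 (adjusted p = 0.16).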

How the results depend on the processing

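With totals alone 2 deacetylases (Hdac1 and Hdac4) and 17 partner genes were called higher. Without the fold change threshold 3 deacetylases were lower and 1 higher, and 13 partner genes lower and 11 higher, out of 98, where 14.2% of all genes passed in each direction. Over the fits that leave out a library, 0 deacetylases were called, and 5 to 9 partner genes were lower and 4 to 7 higher. Of the 10 deacetylases only Hdac8 changed sign, and only with totals alone (0.10). The ratio counts without a library could not differ from 0, since 15 or 20 splits cannot give a p under 0.05. Calls over all genes went from 1592 lower and 1504 higher to 978 and 3681 with totals alone, and counts of lower genes fell to 1196 without SCA7 replicate 1. On the adjusted p alone, Hdac5 and Hdac9 passed in 10 of 15 fits, Hdac10 in 5, Hdac6 in 4, Hdac4 and Hdac7 in 2. Replicate numbers are shared between genotypes, and the animal numbers in the titles are close for mice with the same replicate number. Deviations of such mice correlated at 0.02 to 0.20, and not every mouse correlated best with its own number. SCA7 replicates 1 and 3 correlated best with WT replicate 4 (0.05 and 0.14), which has no partner. These values cannot decide whether the mice were paired, so the main fit took no pairs and the block is an alternative. With a replicate block 0 deacetylases were called, but on the adjusted p alone 3 were lower and 4 higher, with Hdac4 (adjusted p = 0.0074), Hdac6 (0.043) and Hdac7 (0.048) added to Hdac1, where 17.0% of all genes were lower and 17.2% higher. With Xist as covariate Hdac6 (0.040) and Hdac7 (0.021) were added, where 17.1% and 18.2% of all genes passed. Under the block 7 partner genes were lower and 7 higher, and 1706 and 1629 of all genes, with the fold change threshold. The cause of these shifts was not tested. At 253 to 680 counts per library, Hdac7 had the widest interval.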
